A study of Homo sapiens with 18 samples.

Results

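The genes described here write, remove and read out part of the chromatin code: the histone lysine methyltransferases, the lysine demethylases and the zinc-dependent histone deacetylases. They were chosen by symbol, as protein-coding genes of GENCODE release 44 whose symbol starts with KDM, KMT2, KMT5, SETD, EZH, EHMT, NSD or HDAC. The rule matched 59 genes, and 54 of them had at least 1 intron that could be tested. The 5 without one were EZHIP, HDAC2, KDM4E, KDM4F and KDM5D. The rule also took NSDHL, an enzyme of cholesterol synthesis, and EZHIP, an inhibitor of the EZH2 complex, which match by symbol only and belong to no gene group below. The tested members were 847 introns with both ends at exon boundaries of their gene, of 152722 tested introns in all, and 218 cassette exons in 52 genes, of 26841 in all. A cassette exon is an exon that can be skipped, with an intron on either side and an intron that spans it.

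SHEP.tet21n is an engineered human neuroblastoma cell line in which doxycycline (Dox) switches off a human MYCN cDNA. The cells received Dox at 2 µg/mL (MYCN-) or DMSO as vehicle (MYCN+). In each state they received a control siRNA (SNRPD3+) or either of 2 siRNAs against SNRPD3 (SNRPD3-). MYCN state and Dox thus go together in every library, and an effect of MYCN cannot be told apart from an effect of Dox. SNRPD3 encodes a Sm protein of the core of the spliceosomal small nuclear ribonucleoproteins, and MYCN-/SNRPD3+ cells are called wildtype here. The 6 groups had 3 libraries of polyadenylated RNA each, 18 in all, and since the labels do not say that replicates were separate cultures, the p-values measure the spread between these libraries. All groups share 1 cell line and 1 MYCN transgene, the control siRNA libraries serve several comparisons, and no intron of MYCN or SNRPD3 is used here, so neither repression nor knockdown was checked. The deposited value is PSI (percent spliced in), the share of an intron among the spliced reads of its cluster of overlapping introns. It carries no read number, so the depth is unknown, and it shows neither the expression of a gene nor retained introns.

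Histone methylation is read by position. Methylation of H3K4 marks active promoters and enhancers, H3K9 and H3K27 methylation mark silent chromatin, H3K36 methylation marks transcribed gene bodies and H4K20 methylation is tied to the cell cycle and chromatin compaction. The demethylases remove these marks, and the deacetylases remove acetyl groups from histone tails, the class I enzymes as parts of corepressor complexes. Many of these genes are long and have many exons, and several are known to make isoforms that differ by a single exon.

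The exon sequences on which the results turn are shown first, since each of them was found both in and out of the spliced RNA. Capitals mark exon bases and lower case the intron bases on either side, from hg38, 5′ to 3′ along the gene. The first is a 70-base exon of SETD9 (chr5:56911042-56911111, plus strand), annotated in transcripts without a defined coding sequence. The next are exon 7 of EHMT1 (chr9:137752331-137752408, plus strand, 78 bases), exon 29 of KMT2B (chr19:35733597-35733686, plus strand, 90 bases), exon 3 of HDAC3 (chr5:141634811-141634953, minus strand, 143 bases) and exon 3 of KDM1A (chr1:23044427-23044486, plus strand, 60 bases), all numbered along the canonical transcript.
SETD9 70-base exon: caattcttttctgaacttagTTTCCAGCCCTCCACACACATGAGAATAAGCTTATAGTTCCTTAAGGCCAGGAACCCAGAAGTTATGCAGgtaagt
EHMT1 exon 7: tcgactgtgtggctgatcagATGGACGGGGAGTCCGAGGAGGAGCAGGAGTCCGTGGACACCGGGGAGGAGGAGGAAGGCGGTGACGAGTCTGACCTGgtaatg
KMT2B exon 29: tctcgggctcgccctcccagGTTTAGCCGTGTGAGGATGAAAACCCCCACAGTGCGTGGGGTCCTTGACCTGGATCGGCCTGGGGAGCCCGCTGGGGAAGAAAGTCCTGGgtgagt
HDAC3 exon 3: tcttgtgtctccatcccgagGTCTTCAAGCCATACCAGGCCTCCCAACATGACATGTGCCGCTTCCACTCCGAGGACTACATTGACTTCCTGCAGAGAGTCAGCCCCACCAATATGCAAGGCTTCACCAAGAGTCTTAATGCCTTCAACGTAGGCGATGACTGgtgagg
KDM1A exon 3: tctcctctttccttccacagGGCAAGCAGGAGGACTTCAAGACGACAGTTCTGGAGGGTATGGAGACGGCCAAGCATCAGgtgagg

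Shorter stretches carry the other sites at which the sequence matters. A 137-base exon of KDM4A between exons 2 and 3 (chr1:43653663-43653799, plus strand) is annotated in 1 transcript of the nonsense-mediated decay class, and the stretch at chr1:43653651-43653680 runs from its acceptor to the stop codon that the upstream reading frame meets 15 bases into it, in capitals from the first exon base. At exon 17 of KDM6B (chr17:7851458-7851487, plus strand, capitals from the annotated first exon base) the intron ends in a repeated acceptor, so that the use of the upstream copy leaves 3 further bases in the mRNA.
KDM4A exon start: ctctcatttcagTCTCATCCAGCACTCTAG
KDM6B exon 17 acceptor: tgtgctcttcgccccagcagCAGCGCACCA

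The members were mostly constitutive exons with a minority that is split between isoforms. Of the 218 cassette exons, 128 had a mean inclusion of at least 90%, 37 of at most 10% and 53 lay between, where inclusion is the mean PSI of the flanking introns over that mean plus the PSI of the skipping intron. Their median inclusion was 94.2%, against 92.4% for all cassette exons, their median length was 117 bases in both sets, and 41.3% against 42.9% had a length divisible by 3. The skipping intron was itself annotated for 131 of them. KMT2C and SETD5 held the most tested introns, 39 and 37, and SETD5 the most cassette exons, 13. Within a group, the median SD between replicates was 1.93 percentage points for the cassette exons and 2.18 for the introns. The filter on a mean PSI of 0.01 to 0.99 left out 267 introns of these genes below it and 72 above it. The values nearest to its limits were 1.01% and 0.984% at the lower end and 98.96% and 99.04% at the upper end.

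A pair of libraries stood apart. Averaged over the 218 exons, inclusion was 71.1% ± 0.31 (SD, n = 3) in wildtype cells, 70.1% ± 0.64 and 70.4% ± 0.32 (SD, n = 3) with SNRPD3 siRNA 1 and 2 in the MYCN- state, and 71.5% ± 0.61 (SD, n = 3) in MYCN+/SNRPD3+ cells. The MYCN+/SNRPD3- groups had 69.0% ± 0.74 under siRNA 1 and 69.5% ± 1.1 under siRNA 2 (SD, n = 3). In each of these last groups, replicate 3 had the lowest values of all libraries, 68.2% and 68.3%. They were also the lowest over all 26841 cassette exons, so each call of these genes over both siRNAs is given below with and without this pair, an alternative chosen after seeing the data. Without the pair, 11 of 43 such calls were kept and 32 lost. Calls over the whole table fell as well. For MYCN they went from 1875 to 1100 introns and from 929 to 347 exons. For MYCN+/SNRPD3- against wildtype they went from 854 to 325 introns and from 1158 to 189 exons. Whether the quality of these libraries had a part in the results was not tested.

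**Figure D1:**
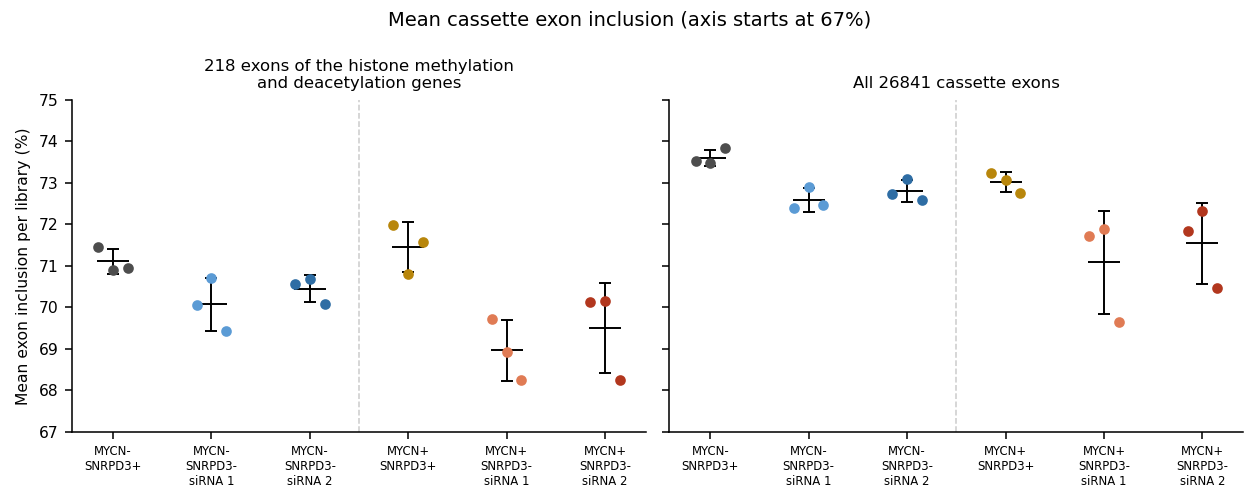
Mean cassette exon inclusion per library in percent, over the 218 exons of the histone methylation and deacetylation genes (left) and over all 26841 cassette exons (right), with points for libraries and bars for the group mean and SD (n = 3). The MYCN+/SNRPD3- groups have the lowest means in both panels. Their libraries lie below all others on the right, but overlap with MYCN-/SNRPD3- libraries on the left. In both of these groups replicate 3 (68.2% and 68.3% on the left) is below the others.

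SNRPD3 knockdown was examined first, over both MYCN states. No member exon or intron was called, and the estimates of most exons leaned towards lower inclusion. With limma and Benjamini-Hochberg adjustment over the whole table (adjusted p under 0.05), 0 of 847 introns and 0 of 218 cassette exons were called, where 0.0242% of all introns and 0.0708% of all cassette exons were. An unadjusted p under 0.05 was found for 84 introns (9.92%, against 7.8% of all introns) and 41 exons (18.8%, against 13.9% of all cassette exons). Of the 41 exons, 39 were lower with SNRPD3 siRNA. Over all cassette exons, 3360 of the 3731 at that p were lower. Over all 218 exons, 175 (80.3%) had a lower estimate, with a median of -0.905 percentage points, against 71.1% and -0.753 for all cassette exons. The exons of a gene share their libraries and the libraries set the average, so this is a description and not a test. The pair of lowest libraries is among the SNRPD3 siRNA libraries. These shares, and those by gene group and by MYCN state below, are not given without it.

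By gene group, the share of lower estimates is read against the 71.1% of all cassette exons. Estimates were lower for 45 of 55 exons of the demethylases, 26 of 32 of the H3K4 methyltransferases, 10 of 13 of the H3K9, 12 of 16 of the H3K27, 13 of 16 of the H3K36 and 7 of 8 of the H4K20 methyltransferases, and for 26 of 30 of the other SET-domain genes. Among the deacetylases they were lower for 8 of 10 exons of class I, 12 of 16 of class IIa, 12 of 17 of class IIb and 3 of 4 of HDAC11. Class IIb thus lay just below the share of all exons, and H3K27, class IIa and HDAC11 close to it. The smallest adjusted p belonged to exon 4 of KDM6A, an H3K27 demethylase on the X chromosome (chrX:44974666-44974715, 50 bases). Its inclusion was 98.3, 98.0 and 98.6% in wildtype and 97.3, 98.2 and 97.3% in MYCN+/SNRPD3+ cells. With SNRPD3 siRNA it ran from 90.6 to 97.0% over 12 libraries, all of them below each of the 6 control siRNA libraries, with a difference of -2.70 percentage points (limma, adjusted p = 0.0784). Since the exon was picked by its p-value between these same libraries, the lack of overlap adds no support. How many of all exons lack overlap is not given here. Leaving out exon 4 moves the reading frame, and the frame then ends after 126 codons in place of 1453.

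Within a single MYCN state the knockdown gave no call either. With MYCN expressed, 0 introns (background 0.0196%) and 0 exons (0.0522%) were called by limma, and 70 introns and 31 exons had an unadjusted p under 0.05 (7.06% and 12.2% of all). Here 172 of 218 exons (78.9%) had lower estimates against 70.2% of all. With MYCN repressed, 0 introns (0.0138%) and 0 exons (0.0112%) were called by limma, and 52 introns and 22 exons had an unadjusted p under 0.05 (4.69% and 6.17% of all). Here 150 exons (68.8%) had lower estimates against 63.2% of all. The difference between the states was tested as an interaction, with 0 introns (0.0177%) and 0 exons (0.00745%) called by limma and 31 introns and 14 exons at an unadjusted p under 0.05 (3.98% and 4.34% of all). Without this pair, 2 introns of KMT2C were called in the knockdown over both states, with MYCN expressed and in the interaction.

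KMT2C writes H3K4 monomethylation at enhancers, and these introns (chr7:152194262-152194397 and chr7:152194262-152194439, minus strand) share an acceptor and differ by their donor, so that 1 rises as the other falls. The shorter intron took 11.1, 8.07 and 3.21% of the cluster in MYCN+/SNRPD3- cells with siRNA 1. It took 0.0938, 0.0727 and 3.15% with siRNA 2, and between 0.0515 and 0.136% in the other 12 libraries. All 4 libraries above 3% were thus MYCN+/SNRPD3- libraries, and only 1 of them was from siRNA 2. Over both siRNAs the difference from MYCN+/SNRPD3+ was 4.21 percentage points (log2 odds 1.82, SE 0.40, limma adjusted p = 0.255), and 0.000150 without the pair, which leaves 2 libraries of each siRNA. The siRNA 2 libraries left were those at 0.0938 and 0.0727%, within the range of the other 12 libraries. The calls without the pair thus rest on the siRNA 1 libraries at 11.1 and 8.07%. With siRNA 1 alone, both introns were called against wildtype (7.36 percentage points, adjusted p = 0.0243) and for MYCN+ against MYCN- cells (adjusted p = 0.0457). KMT2C was named after its values were seen, and 16 of its 18 values per intron are different ones.

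**Figure D2:**
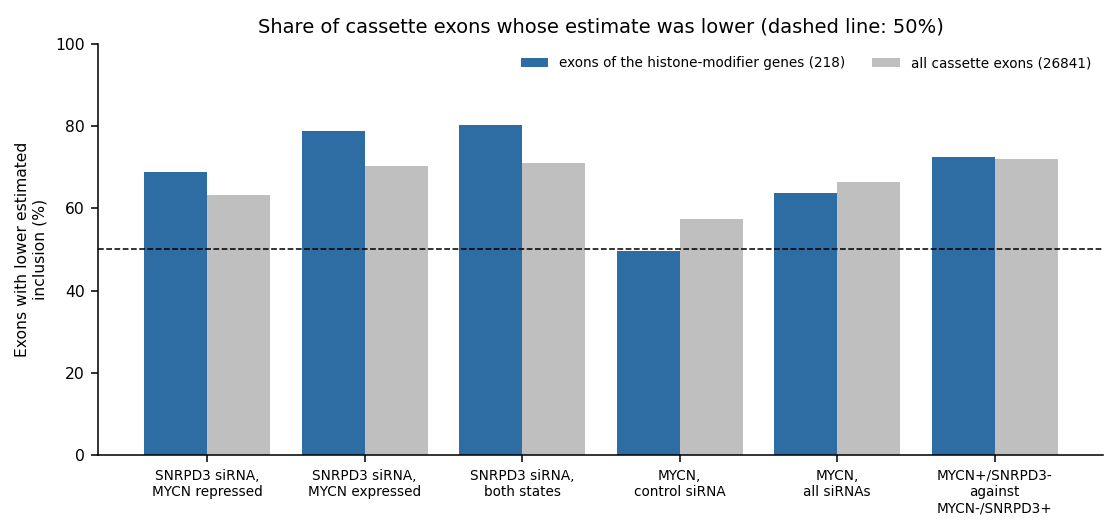
Percentage of cassette exons whose estimated inclusion was lower in the first group of each comparison, for the 218 exons of the histone-modifier genes and for all 26841 cassette exons, with a dashed line at 50%. For SNRPD3 siRNA the members are at 80.3% over both states, 78.9% with MYCN expressed and 68.8% with MYCN repressed, against 72.5% for MYCN+/SNRPD3- against wildtype and 49.5% for MYCN under control siRNA. The pair of lowest libraries was kept in.

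MYCN expression was compared over all 3 siRNAs, 9 MYCN+ against 9 MYCN- libraries, where most of the calls fell. All of the MYCN- libraries had Dox, so MYCN and Dox cannot be told apart in it. Changes were found in 16 introns of 12 genes, 9 with higher and 7 with lower PSI, and in 7 exons of 7 genes, 1 with higher and 6 with lower inclusion. That is 1.89% of the member introns against a background of 1.23%, and 3.21% of the exons against 3.46%, so the shares are near those of the whole table. By direction, 0.681% of all introns were higher and 0.547% lower, and 0.417% of all cassette exons were higher and 3.04% lower. The calls lay in 2 demethylases (KDM4A, KDM6B), the H3K9 methyltransferases SETDB1 and EHMT1, the H4K20 methyltransferase KMT5A, the SET-domain genes KMT2E, SETD4, SETD5 and SETD9, and the deacetylases HDAC1, HDAC3, HDAC9 and HDAC10. None of the H3K4, H3K27 or H3K36 methyltransferases had a call in this comparison by limma. At an unadjusted p under 0.05 they had 8, 4 and 6 introns and 4, 3 and 3 exons. Of all members, 94 introns (11.1%) and 39 exons (17.9%) were at that p. The share of the whole table is not given for it, so these counts cannot be read as high or low. Unlike with the knockdown, exon estimates did not lean further down than elsewhere, since 139 of 218 (63.8%) were lower against 66.3% of all cassette exons.

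SETD9, a SET-domain gene of little-known function, had the exon with higher inclusion. Inclusion of this 70-base exon was 34.7, 38.9 and 22.4% in wildtype, 46.5, 39.1 and 35.0% with siRNA 1 and 39.9, 38.5 and 28.1% with siRNA 2 in MYCN- cells. With MYCN expressed it was 56.1, 44.2 and 51.0% with control siRNA, 57.6, 45.7 and 54.4% with siRNA 1 and 63.3, 68.2 and 60.4% with siRNA 2. Only the highest MYCN- library overlapped with the lowest MYCN+ libraries. The difference was 19.8 percentage points (log2 odds 1.17, SE 0.20, limma adjusted p = 0.00854, and 0.0307 without the pair). The exon belongs to a minor part of the SETD9 transcripts: its flanking introns took 2.90% and 4.98% of their cluster in wildtype and 8.77% and 15.3% in MYCN+/SNRPD3- cells with siRNA 2. Both flanking introns were called (adjusted p = 0.0444 and 0.00584), as was the intron from exon 2 to exon 3 (chr5:56911537-56913010), which fell from between 36.8 and 47.0% to between 25.5 and 40.6% (adjusted p = 0.0397). Without the pair, the intron from the exon to exon 3 was still called (adjusted p = 0.0265), and the other introns were not (adjusted p = 0.0877 and 0.0864).

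**Figure D3:**
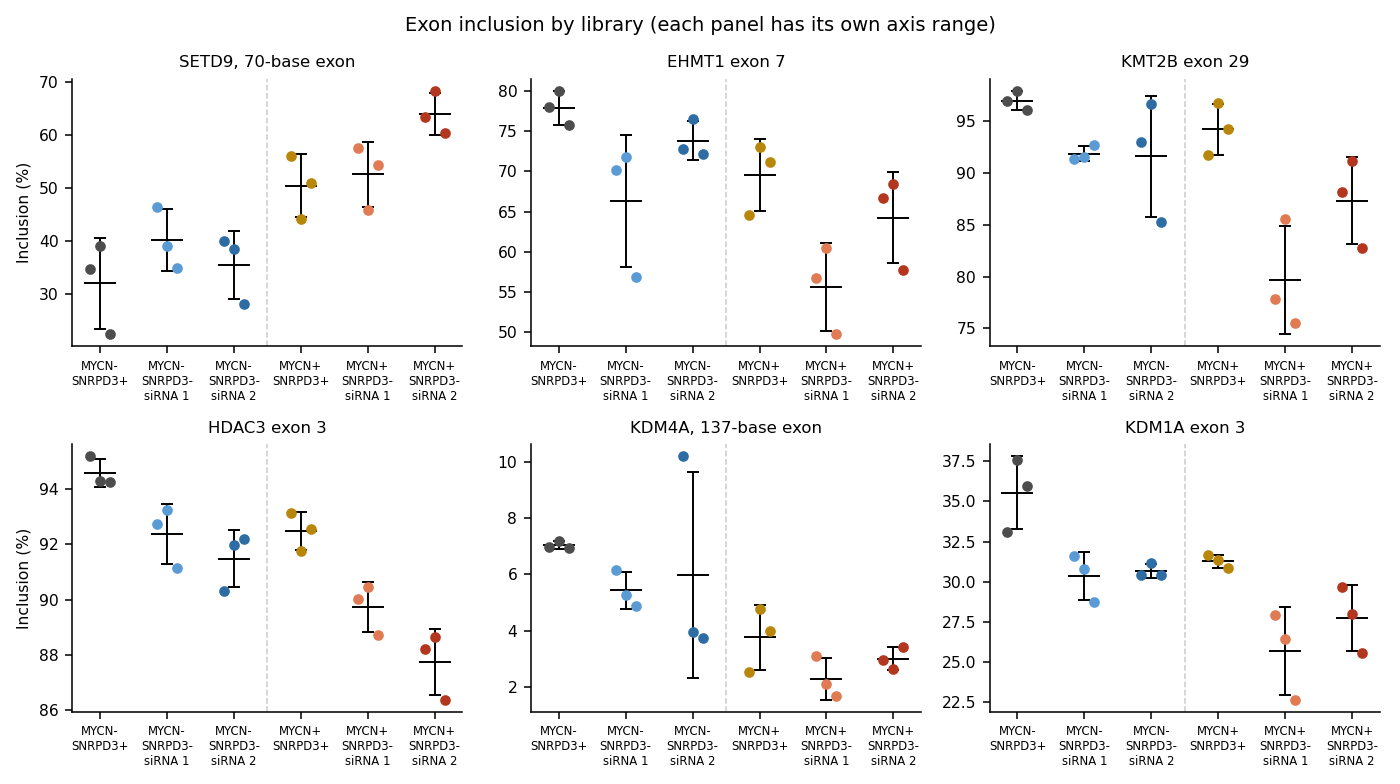
Inclusion in percent of 6 exons in each of the 18 libraries, by group, with points for libraries and bars for the group mean and SD (n = 3), each panel with its own axis range. SETD9 is higher in the MYCN+ groups (44.2 to 68.2%), and the other exons are lowest in the MYCN+/SNRPD3- groups.

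SETD5, a SET-domain gene linked to the HDAC3 corepressor complex, changed at its 5′ end. The intron from exon 1 to exon 2 (chr3:9397978-9424466) took 34.9, 45.8 and 26.99% of its cluster in wildtype, 28.4, 37.6 and 25.03% with siRNA 1 and 26.6, 38.1 and 31.9% with siRNA 2 in MYCN- cells. In MYCN+ cells it took 16.9, 18.1 and 23.7% with control siRNA, 22.2, 21.9 and 21.8% with siRNA 1, and 24.1, 11.6 and 12.2% with siRNA 2. The 9 MYCN+ libraries lay below the 9 MYCN- libraries without overlap, a difference of -13.6 percentage points (log2 odds -1.03, SE 0.21, limma adjusted p = 0.0312, and 0.108 without the pair). Since the intron was picked by this difference, the lack of overlap adds no support to the call. An intron of the same cluster that leads into a 535-base exon before the start codon (chr3:9421593-9422722) rose by 9.24 percentage points (adjusted p = 0.0291, and 0.107 without the pair). The inclusion of that exon was 14.8 percentage points higher with MYCN and was not called (adjusted p = 0.0558).

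KMT5A, which monomethylates H4K20, gave the smallest adjusted p of the called members. The intron from an exon outside the canonical transcript to exon 3, annotated in 1 transcript without a defined coding sequence (chr12:123389183-123390629), took 8.23, 9.37 and 8.54% of its cluster in wildtype, 8.03, 10.3 and 7.78% with siRNA 1 and 6.56, 5.98 and 6.18% with siRNA 2 in MYCN- cells. With MYCN expressed it took 15.9, 14.4 and 13.5% with control siRNA, 9.20, 12.5 and 11.1% with siRNA 1, and 15.6, 14.5 and 12.98% with siRNA 2. The MYCN- libraries at 9.37% and 10.3% lay above the lowest MYCN+ library, at 9.20%. PSI rose by 5.41 percentage points (log2 odds 0.77, SE 0.09, limma adjusted p = 0.00104, and 0.00465 without the pair).

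The deacetylases changed at single introns. HDAC9, a class IIa enzyme, is a signal-responsive corepressor. Its intron from exon 25 to exon 26 (chr7:18975954-18996022) competed with a join from an unannotated donor to the same exon, and took 65.7, 50.1 and 70.1% in wildtype, 71.0, 71.0 and 65.3% with siRNA 1 and 83.7, 84.3 and 61.0% with siRNA 2 in MYCN- cells. In MYCN+ cells it took 21.9, 18.2 and 46.3% with control siRNA, 26.7, 21.9 and 34.4% with siRNA 1, and 40.4, 26.7 and 57.6% with siRNA 2. The highest MYCN+ library lay above the lowest MYCN- library, and only 15 of the 18 values differ from each other, so some are repeated between libraries. Repeated values may stand for libraries with few or no reads, which could not be checked without read numbers. The difference of -36.5 percentage points was the largest of the called members (log2 odds -2.29, SE 0.35, limma adjusted p = 0.00588). The intron from exon 13 to exon 14 of HDAC9 (chr7:18727758-18749004) fell as well, from a median of 7.03% in the MYCN- libraries to 3.73% (adjusted p = 0.0103). Both HDAC9 calls held without the pair (adjusted p = 0.00900 and 0.0304).

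HDAC10, a class IIb enzyme known to act on acetylated polyamines, used an acceptor upstream of exon 7 more often with MYCN. That intron (chr22:50249517-50249634, minus strand) ran from 0.712 to 3.72% with a median of 2.34% in the MYCN- libraries and from 3.74 to 7.68% with a median of 5.32% in the MYCN+ libraries. The groups did not overlap, by a margin of 0.0132 percentage points, and the difference was 3.56 percentage points (log2 odds 1.12, SE 0.18, limma adjusted p = 0.00780, and 0.0318 without the pair). Here too the lack of overlap adds no support, since the call was made on these same libraries. Exon 14 of HDAC10 (chr22:50247692-50247776, 85 bases) had lower inclusion with MYCN, with a difference of -8.28 percentage points (adjusted p = 0.0499). This exon had a median of 85.5% in MYCN- and 78.4% in MYCN+ libraries, with overlap, and was not called without the pair (adjusted p = 0.151).

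HDAC1 and HDAC3 are the catalytic subunits of the NuRD, Sin3 and CoREST complexes and of the NCOR complexes. Exon 7 of HDAC1 (chr1:32329068-32329160, 93 bases) ran from 98.0 to 99.1% in MYCN- and from 96.4 to 98.2% in MYCN+ libraries, a small difference of -1.20 percentage points (limma adjusted p = 0.0368, and 0.116 without the pair). The skipping join of exon 6 to exon 8, which is not annotated, rose to match (adjusted p = 0.0398, and 0.135 without the pair). Leaving out this exon keeps the reading frame, with 451 codons in place of 482.

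HDAC3, SETD9 and KDM4A each had a called exon and a called intron both for MYCN and for MYCN+/SNRPD3- against wildtype. Inclusion of HDAC3 exon 3 was 95.2, 94.3 and 94.2% in wildtype, 92.7, 93.2 and 91.1% with siRNA 1 and 90.3, 92.0 and 92.2% with siRNA 2 in MYCN- cells. With MYCN expressed it was 93.1, 91.8 and 92.6% with control siRNA, 90.03, 90.4 and 88.7% with siRNA 1, and 88.2, 88.6 and 86.4% with siRNA 2. Each SNRPD3 siRNA group was below the control siRNA group of the same MYCN state on average, and the 6 MYCN+/SNRPD3- libraries lay below wildtype by a margin of 3.81 percentage points. The difference was -2.82 percentage points for MYCN (limma adjusted p = 0.0403, and 0.118 without the pair) and -5.83 for MYCN+/SNRPD3- against wildtype (log2 odds -1.02, SE 0.17, adjusted p = 0.0122, and 0.0460 without the pair). The skipping intron from exon 2 to exon 4 (chr5:141630126-141636547) rose from 2.79% ± 0.27 in wildtype to 5.41% ± 0.50 with siRNA 1 and 6.53% ± 0.68 with siRNA 2 in MYCN+ cells (SD, n = 3, limma adjusted p = 0.00664, and 0.0313 without the pair). It was also called for MYCN (adjusted p = 0.0208, and 0.0818 without the pair). Skipping exon 3 shifts the frame, which then stops after 53 of 428 codons, 912 bases before the last exon junction. With either siRNA alone, exon and intron were called against wildtype (adjusted p for the exon 0.0393 and 0.0300).

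**Figure D4:**
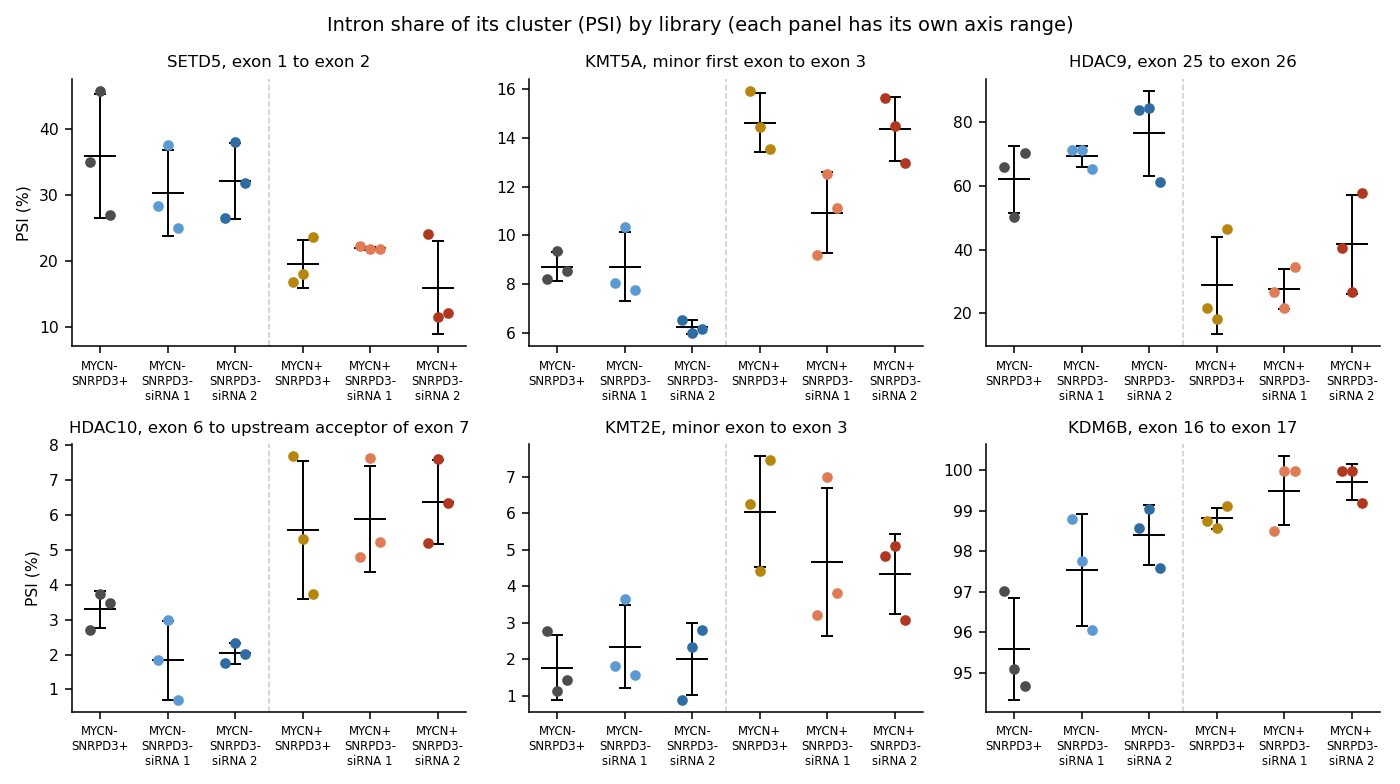
PSI in percent of 6 introns in each of the 18 libraries, by group, with points for libraries and bars for the group mean and SD (n = 3), each panel with its own axis range. MYCN- groups stand left and MYCN+ groups right of the dashed line: SETD5 and HDAC9 are lower and KMT5A, HDAC10, KMT2E and KDM6B higher in MYCN+ cells, and SETD5 (lowest MYCN- library 25.03%, highest MYCN+ library 24.1%) and HDAC10 do not overlap. The introns were called from these same libraries, so the lack of overlap adds no support.

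The demethylases KDM4A and KDM6B were called in both comparisons. KDM4A removes methyl groups from H3K9 and H3K36. Inclusion of its 137-base exon was 6.96, 7.20 and 6.96% in wildtype, 6.17, 5.25 and 4.87% with siRNA 1 and 10.2, 3.95 and 3.74% with siRNA 2 in MYCN- cells. In MYCN+ cells it was 2.51, 4.78 and 3.98% with control siRNA, 3.09, 2.08 and 1.65% with siRNA 1, and 2.95, 2.61 and 3.42% with siRNA 2. Wildtype was above every MYCN+ library, while 1 MYCN-/SNRPD3- library was far above its replicates. The difference was -3.14 percentage points for MYCN (limma adjusted p = 0.0275, and 0.0783 without the pair) and -4.404 against wildtype (log2 odds -1.23, SE 0.29, adjusted p = 0.0327, and 0.0975 without the pair). The intron from this exon to exon 3 (chr1:43653800-43655590) was also called (adjusted p = 0.0259 and 0.0263), and without the pair it was called for MYCN (adjusted p = 0.0481) and not against wildtype (adjusted p = 0.0517). With the exon added, the reading frame of the canonical transcript ends after 51 of 1064 codons at the stop codon shown above.

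KDM6B, an H3K27 demethylase, used the annotated acceptor of exon 17 more in MYCN+ cells, at the repeated acceptor shown above. The intron with this acceptor (chr17:7851395-7851477) took 97.0, 95.1 and 94.7% in wildtype, 98.8, 97.7 and 96.0% with siRNA 1 and 98.6, 99.04 and 97.6% with siRNA 2 in MYCN- cells. With MYCN expressed it took 98.7, 98.6 and 99.1% with control siRNA, and in MYCN+/SNRPD3- cells from 98.5 to 99.98% with a median of 99.97%. The last range lay above wildtype without overlap, and 17 of the 18 values are different ones. The difference was 2.16 percentage points for MYCN (log2 odds 1.22, SE 0.23, limma adjusted p = 0.0216) and 4.01 against wildtype (adjusted p = 0.0240), and both calls held without the pair (adjusted p = 0.0436 and 0.0485).

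Among the other calls for MYCN, KMT2E, a SET-domain gene without known methyltransferase activity, had a higher PSI for the intron from an exon outside the canonical transcript to exon 3 (chr7:105038526-105040838). It ran from 0.892 to 3.64% in MYCN- and from 3.08 to 7.44% in MYCN+ libraries (limma adjusted p = 0.0302, and 0.0559 without the pair). SETDB1, which writes H3K9 trimethylation and silences endogenous retroviruses, used its intron from exon 15 to exon 16 (chr1:150959348-150960562) slightly less, with a median of 97.2% in MYCN- and 94.1% in MYCN+ libraries (adjusted p = 0.0328, and 0.0985 without the pair). In the SET-domain gene SETD4, a 94-base exon between exons 2 and 3 (chr21:36057384-36057477, minus strand) had a median inclusion of 12.8% in MYCN- and 8.11% in MYCN+ libraries (adjusted p = 0.0400, and 0.109 without the pair), and the intron from it to exon 3 fell too (adjusted p = 0.0391, and 0.125 without the pair). Exon 19 of EHMT1 (chr9:137811461-137811615, 155 bases) fell from a median of 98.1% to 95.8% (adjusted p = 0.0409, and 0.101 without the pair). Groups overlapped for each of these.

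Under control siRNA alone, 3 MYCN+ against 3 wildtype libraries, limma called 0 introns (background 0.0543%) and 0 exons (0.00745%), with 50 introns and 22 exons at an unadjusted p under 0.05 (6.19% and 7.49% of all). Here 108 of 218 exons (49.5%) had lower estimates, against 57.4% of all cassette exons. For the SETD9 exon the difference was 18.4 percentage points (adjusted p = 0.452), close to that over all siRNAs, and for the KMT5A intron it was 5.90 (adjusted p = 0.145). Some other calls for MYCN differed less under control siRNA. HDAC10 exon 14 had means of 85.6% in wildtype and 81.9% in MYCN+/SNRPD3+ cells. With MYCN it went from 84.9 to 71.6% under siRNA 1 and from 86.4 to 78.5% under siRNA 2. For the SETD5 intron chr3:9421593-9422722 these means were 20.5 and 25.2%, 24.7 and 34.7%, and 23.2 and 36.3%. Not all calls were compared in this way. The comparisons share libraries, so the estimates are not independent.

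MYCN+/SNRPD3- cells were then compared with wildtype, 6 libraries against 3, which asks what MYCN expression and SNRPD3 knockdown give together. Changes were found in 10 introns of 9 genes, 7 higher and 3 lower, and in 10 exons of 8 genes, 1 higher and 9 lower. This was 1.18% of the introns against a background of 0.559%, and 4.59% of the exons against 4.31%. By direction, 0.35% of all introns were higher and 0.209% lower, and 0.186% of all cassette exons were higher and 4.13% lower. The exons lay in EHMT1, KMT2B, KMT2E, KDM4A, KDM6A, HDAC3, SETD4 and SETD9, and introns of KDM1A, KDM2B, KDM6B and SETD5 were called as well. The H3K27, H3K36 and H4K20 methyltransferases and the class IIa, IIb and IV deacetylases had no call by limma here. At an unadjusted p under 0.05 they had 8, 9, 8, 6, 4 and 0 introns and 5, 3, 5, 0, 1 and 1 exons. Of all members, 103 introns (12.2%) and 54 exons (24.8%) were at that p. The share of the whole table is not given for it, so these counts cannot be read as high or low. Of all 218 exons, 158 (72.5%) had a lower estimate with a median of -1.21 percentage points, against 71.9% and -1.33 for all cassette exons. In each of the 20 calls the 6 MYCN+/SNRPD3- libraries did not overlap with the 3 wildtype libraries. The calls were picked by their difference between these same libraries, so the lack of overlap adds no support to them. Its share over all introns and exons is not given here.

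EHMT1 had the most calls in this comparison, 2 introns and 2 exons. It encodes the partner of EHMT2 in the complex that writes H3K9 mono- and dimethylation in euchromatin. Inclusion of exon 7 was 78.0, 79.9 and 75.8% in wildtype, 70.2, 71.8 and 56.9% with siRNA 1 and 72.8, 76.6 and 72.1% with siRNA 2 in MYCN- cells. In MYCN+ cells it was 64.5, 73.1 and 71.2% with control siRNA, 56.7, 60.5 and 49.7% with siRNA 1, and 66.7, 68.4 and 57.7% with siRNA 2. The lowest wildtype library lay 7.40 percentage points above the highest MYCN+/SNRPD3- library, and the mean was lower with siRNA 1 than with siRNA 2. The difference was -17.9 percentage points (log2 odds -1.20, SE 0.25, limma adjusted p = 0.0250, and 0.0857 without the pair). It was -22.2 with siRNA 1 alone (adjusted p = 0.0302). Neither MYCN over all siRNAs (-9.51 percentage points, adjusted p = 0.0578) nor SNRPD3 siRNA (-8.73, adjusted p = 0.192) was called on its own. The skipping intron from exon 6 to exon 8 (chr9:137744091-137754170) rose from 12.4% ± 1.3 to 28.6% ± 4.6 with siRNA 1 and 21.9% ± 4.3 with siRNA 2 (SD, n = 3, limma adjusted p = 0.0430, and 0.126 without the pair). Exon 7 has a length divisible by 3, so that its loss shortens the frame from 1298 to 1272 codons.

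Another pair of EHMT1 sites changed against wildtype. Exon 11 (chr9:137775109-137775252, 144 bases), which also keeps the frame, was included at 93.6 to 96.5% in wildtype and at 87.7 to 90.01% in MYCN+/SNRPD3- cells (limma adjusted p = 0.0338, and 0.0980 without the pair). The intron from exon 26 to exon 27 (chr9:137834525-137834772) lost share to an unannotated donor. It took at least 99.92% in each wildtype library and from 91.7 to 97.1% in the MYCN+/SNRPD3- libraries (adjusted p = 0.0297, and 0.0999 without the pair), with 17 different values among 18.

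KMT2B, an H3K4 methyltransferase of promoters, lost part of exon 29. Inclusion was 97.0, 97.9 and 96.1% in wildtype, 91.4, 91.5 and 92.7% with siRNA 1 and 93.0, 96.7 and 85.3% with siRNA 2 in MYCN- cells. With MYCN expressed it was 91.8, 96.7 and 94.2% with control siRNA, 77.9, 85.6 and 75.6% with siRNA 1, and 88.1, 91.1 and 82.8% with siRNA 2. The fall was largest with siRNA 1, and siRNA 2 libraries of MYCN- cells spread over a wide range. Inclusion fell by 13.5 percentage points against wildtype (log2 odds -2.30, SE 0.41, limma adjusted p = 0.0158, and 0.0600 without the pair). For SNRPD3 siRNA over both states the difference was -7.99 percentage points and not called (adjusted p = 0.0977), but it was called with the replicate number as a block (adjusted p = 0.0342). The intron from exon 28 to exon 30 (chr19:35733509-35733762) rose from 1.51% ± 0.48 to 11.2% ± 3.1 and 6.75% ± 2.5 (SD, n = 3, limma adjusted p = 0.0291, and 0.107 without the pair). Exon 29 keeps the frame, with 2685 codons left of 2715.

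**Figure D5:**
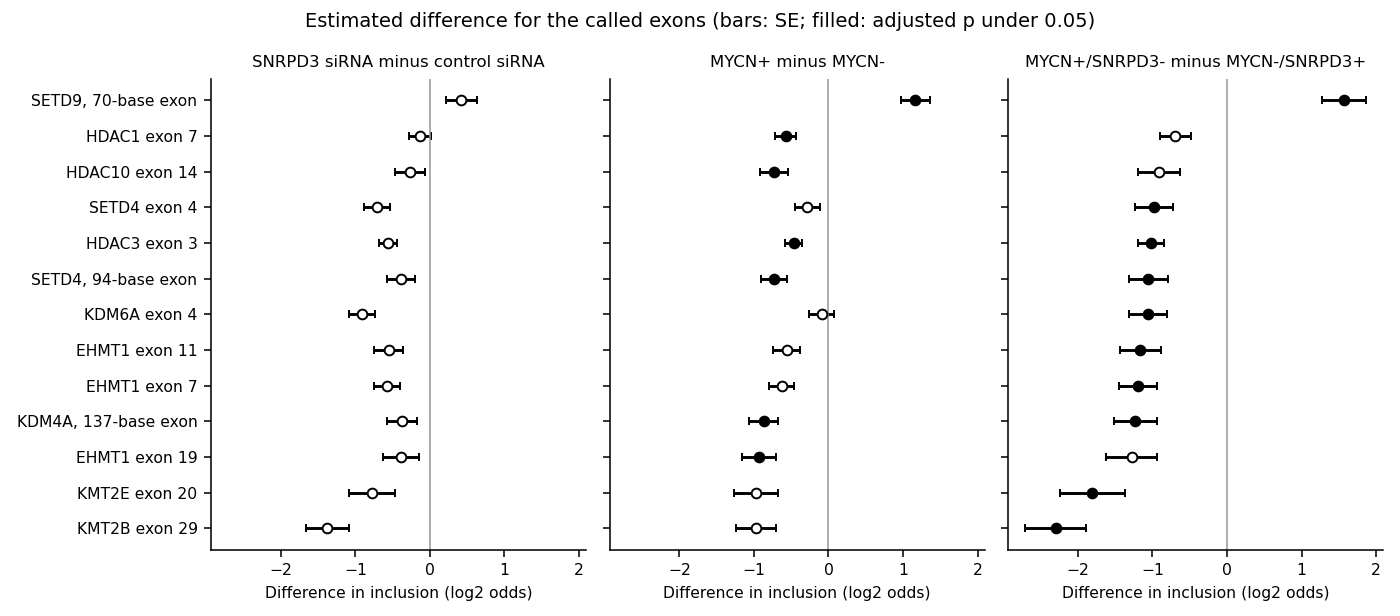
Estimated difference in log2 odds of inclusion, with its standard error, of the 13 exons called in any comparison, for SNRPD3 siRNA against control siRNA, MYCN+ against MYCN- and MYCN+/SNRPD3- against wildtype; filled points have an adjusted p under 0.05. SETD9 lies above 0 in each panel, the other 12 exons have negative estimates throughout, and the comparisons share libraries.

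KDM1A (LSD1) removes mono- and dimethylation from H3K4 in the CoREST complex, and its exon 3 is a known alternative exon of 60 bases. It was chosen after its values were seen, since the intron that skips it was called. Inclusion of the exon was 33.1, 37.6 and 35.9% in wildtype and 31.7, 31.3 and 30.9% in MYCN+/SNRPD3+ cells. It was 31.6, 30.8 and 28.7% with siRNA 1 and 30.4, 31.2 and 30.4% with siRNA 2 in MYCN- cells, and 27.9, 26.4 and 22.7% and 29.7, 27.999 and 25.6% in MYCN+ cells. Wildtype was above all other libraries, and the MYCN+/SNRPD3- libraries were below all others but 1. The exon differed by -8.83 percentage points from wildtype and was not called (limma adjusted p = 0.0567), while the intron from exon 2 to exon 4 (chr1:23030635-23050386) rose by 10.3 percentage points (log2 odds 0.59, SE 0.11, adjusted p = 0.0437, and 0.120 without the pair). In wildtype the skipping intron took 47.6% ± 2.5 (SD, n = 3) of the cluster. This is not the share of skipped RNA, since each included exon adds both of its flanking introns to the cluster. By the inclusion measure, wildtype had 35.5% ± 2.3 (SD, n = 3), so skipping was the more frequent form.

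KDM2B, an H3K36 demethylase that brings a Polycomb complex to CpG islands, lost share of its intron from exon 19 to exon 20 (chr12:121441234-121442156, minus strand) to unannotated donors. PSI was at least 99.94% in each wildtype library, and 95.5, 92.1 and 94.0% with siRNA 1 and 92.9, 95.5 and 86.7% with siRNA 2 in MYCN+ cells. The knockdown libraries of MYCN- cells ran from 93.4 to 99.95%, so that 4 of those 6 were below 98%. The difference from wildtype was -7.18 percentage points (log2 odds -3.00, SE 0.57, limma adjusted p = 0.0392, and 0.125 without the pair). For the knockdown over both states it was -4.89 (adjusted p = 0.139), called in the leave-one-out fits only when replicate 3 of siRNA 2 in MYCN- cells was left out (adjusted p = 0.0295).

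The remaining calls against wildtype lay in KDM6A, KMT2E, SETD4, SETD9 and SETD5. Exon 4 of KDM6A, described above, was lower by 3.09 (limma adjusted p = 0.0348, and 0.0866 without the pair). Exon 20 of KMT2E (chr7:105106522-105106772, 251 bases) was included at no less than 99.98% in wildtype and at 95.2 to 98.4% in MYCN+/SNRPD3- cells (adjusted p = 0.0368, and 0.128 without the pair). Exon 4 of SETD4 (chr21:36053583-36053620, 38 bases) was lower by 2.72 (adjusted p = 0.0428, and 0.120 without the pair). The 94-base exon of SETD4 was lower by 6.82 (adjusted p = 0.0422, and 0.125 without the pair). The SETD9 exon was higher by 26.3 (adjusted p = 0.0175, and 0.0551 without the pair) and the SETD9 intron that follows it by 8.29 (adjusted p = 0.0154, and 0.0578 without the pair). The SETD5 intron into the 535-base exon was higher by 14.995 (adjusted p = 0.0343, and 0.118 without the pair).

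Over the comparisons, 21 introns and 13 exons of 17 genes were called, and 9 genes had both kinds. Of the introns, 5 were called for both MYCN and MYCN+/SNRPD3- against wildtype, as were 4 exons, in comparisons that share the MYCN+/SNRPD3- and wildtype libraries. Of the 43 calls of these introns and exons, 9 were kept in each of the 18 fits that left out 1 library. They were the exon of SETD9 and introns of SETD9, KMT5A, KDM6B, HDAC3, HDAC10 and HDAC9 for MYCN, and the HDAC3 intron against wildtype. Another 18 calls were kept in fewer than 9 of the 18 fits, and 4 of them in 2 fits each, namely HDAC10 exon 14, the KDM1A intron and the SETD9 introns into the 70-base exon and from exon 2. The rest of those 18 lay in EHMT1, SETD4, HDAC1, HDAC3, SETD5, KDM2B, SETDB1 and KMT2E. Of the 13 exons, 4 have a length divisible by 3, as do 42.9% of all cassette exons, and 12 had lower inclusion. Most called exons of the whole table were lower as well, 817 of 929 for MYCN and 1108 of 1158 for MYCN+/SNRPD3- against wildtype. Where the reading frame could be followed, leaving out exons of KDM6A, HDAC3, HDAC10, KMT2E and SETD4 and exon 19 of EHMT1, and adding the exons of KDM4A and SETD4, gave a stop codon at least 50 bases before the last exon junction of the canonical transcript. That is the position at which nonsense-mediated decay is known to act, but PSI does not show whether these RNAs were degraded.

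With single siRNAs, limma gave no member call for the knockdown in either MYCN state. With MYCN expressed, 64 introns and 27 exons had an unadjusted p under 0.05 for siRNA 1 (7.25% and 12.3% of all) and 50 and 27 for siRNA 2 (6.17% and 8.85%), and the adjusted calls were 0.0144% and 0.0% of all for siRNA 1 and 0.0164% and 0.0149% for siRNA 2. With MYCN repressed, the counts were 44 introns and 20 exons for siRNA 1 (4.54% and 5.72% of all) and 54 and 16 for siRNA 2 (4.69% and 5.58%), and the adjusted calls were 0.0105% and 0.00745% of all for siRNA 1 and 0.0151% and 0.00745% for siRNA 2. Against wildtype, siRNA 1 with MYCN gave 7 introns (0.278%) and 4 exons (2.41%), and siRNA 2 gave 2 introns (0.11%) and 2 exons (0.455%). With siRNA 1 the exons were exon 7 of EHMT1 and the exons of HDAC3, KDM4A and KMT2B shown or described above, and with siRNA 2 those of HDAC3 and SETD9. An intron of SETD3, which methylates actin, was called with siRNA 1 (chr14:99406591-99458278, 5.78 percentage points, adjusted p = 0.04997) and was named after its values were seen. For MYCN+ against MYCN-, siRNA 1 gave the 2 introns of KMT2C (0.0491%) and siRNA 2 the KMT5A intron (0.0393%, adjusted p = 0.0128). No exon was called by limma there (0.0112% and 0.0186% of all), with 22 and 19 at an unadjusted p under 0.05 (11.4% and 11% of all). Without the pair, which leaves 2 libraries of each siRNA with MYCN, 5 of the 7 introns and all 4 exons lost their call against wildtype for siRNA 1, as did both introns and both exons for siRNA 2, while the KMT2C and KMT5A introns kept theirs. The 2 introns of KMT2C were then also called for siRNA 1 with MYCN expressed, as was 1 further exon of KMT2B for siRNA 1 against wildtype, named after its value was seen. Whether the siRNAs differ was not tested.

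Some exons were split between isoforms in every group and had no call. Exon 16 of KDM6A (chrX:45062647-45062748, in frame) was included at 50.2% ± 5.6, 44.3% ± 3.5 and 39.0% ± 4.7 in the MYCN- groups with control siRNA, siRNA 1 and siRNA 2, and at 39.5% ± 5.0, 45.3% ± 4.1 and 41.7% ± 2.9 (SD, n = 3) in the MYCN+ groups. The order of the siRNAs was not the same in both states, and the interaction was not called (12.5 percentage points, limma adjusted p = 0.999). Exon 7 of HDAC9 (chr7:18629350-18629481, 132 bases) lay between 46.7% ± 6.4 and 62.4% ± 7.5 as group means, exon 2 of KMT5A (chr12:123389433-123389554) between 51.9% ± 7.9 and 66.2% ± 5.0, and a 180-base exon of NSD2 (chr4:1893730-1893909) between 53.6% ± 3.5 and 66.7% ± 13 (SD, n = 3). None of the 7 comparisons was called for these exons by limma, with the smallest unadjusted p at 0.0279 for KDM6A and at 0.101 for HDAC9. For KMT5A the value is not a plain inclusion, since in wildtype the intron from exon 1 to exon 2 took 1.75% of the cluster and the intron from exon 2 to exon 3 took 60.1%. The 12-base exon of KDM1A and exon 10 of EHMT2, both known alternative exons, were not among the cassette exons of the table.

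Other genes gave values only. With SNRPD3 siRNA, the next exons by unadjusted p lay in KMT5B, HDAC11, EZH1 and KDM3B. In KMT5B, which writes H4K20 di- and trimethylation, a 731-base exon (chr11:68179470-68180200) had 98.1% ± 0.12 inclusion in MYCN+/SNRPD3+ cells and 89.5% ± 4.8 and 94.5% ± 0.75 (SD, n = 3) in MYCN+/SNRPD3- cells (limma adjusted p = 0.0957 with MYCN expressed). In EZH1, a catalytic subunit of Polycomb repressive complex 2, exon 6 (chr17:42722795-42722915) had 98.5% ± 1.4 in wildtype and 92.9% ± 3.8 and 94.0% ± 1.4 (SD, n = 3) in MYCN-/SNRPD3- cells (adjusted p = 0.480 with MYCN repressed). Exon 8 of HDAC11, the class IV deacetylase, differed by -6.54 percentage points over both states (adjusted p = 0.163), and exon 8 of KDM3B, an H3K9 demethylase, by -1.24 (adjusted p = 0.195). For MYCN, exon 5 of KDM1B differed by -4.20 (adjusted p = 0.0758), exon 7 of KDM4B by -15.003 with a wide spread (adjusted p = 0.0761), a 909-base exon of KMT2D by -3.65 (adjusted p = 0.0826) and a 104-base exon of NSD2, the H3K36 dimethyltransferase, by -0.894 (adjusted p = 0.187).

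The partners of these enzymes were counted in the same fit, over 68 listed genes of which 65 had 712 tested introns and 55 had 172 tested cassette exons. For MYCN, 3 introns were higher and 3 lower in 4 genes, CHD3, MTA1, NCOR1 and SMYD3, and 1 exon was higher and 4 lower. That is 0.843% of the partner introns and 2.91% of the exons, against 1.23% and 3.46% of all. The exons lay in SMYD3, a SET- and MYND-domain methyltransferase, MTA1, a NuRD subunit, NCOR1, the corepressor that carries HDAC3, and MTF2, a Polycomb subunit. A 51-base exon of MTA1 fell from a mean of 44.5% in wildtype to 30.7% in MYCN+/SNRPD3+ cells and 28.9% and 29.05% in MYCN+/SNRPD3- cells (limma adjusted p = 0.0183 over all siRNAs, and 0.0374 without the pair). For MYCN+/SNRPD3- against wildtype, 1 intron was higher and 1 lower, both in CHD3, and an exon of SMYD3 was higher and exons of NCOR1 and DOT1L were lower (limma adjusted p = 0.0122, 0.0271 and 0.0476). That is 0.281% of the partner introns and 1.74% of the exons, against 0.559% and 4.31% of all. Without the pair, 4 of these 6 introns and 4 of 5 exons for MYCN, and 1 of 2 introns and 1 of 3 exons against wildtype, the one of SMYD3, were still called.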

How the data were processed

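The authors aligned reads to hg38 (STAR 2.5.0a and SAMtools 1.3.1 in the submitters' notes) and counted and clustered introns using leafcutter. What the authors deposited is PSI as a fraction of the cluster's spliced reads for 233650 introns in 51819 clusters and 18 libraries. PSI is printed here in percent. The deposited comparisons (adjusted p-values and delta PSI) were not used, and 0 columns belonged to other samples. No read numbers are given, so a PSI has no counting interval here, and errors are the spread between replicates.

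Introns were placed on GENCODE release 44 (an earlier release is named in the methods of the study), and 127076 matched an annotated intron. A member intron had both ends at exon boundaries of its gene, since the rule was read so, and 26 members also matched a second coding gene. Of the members, 52 had a value repeated between libraries. Introns and cassette exons with a mean from 0.01 to 0.99 were fitted with limma 3.58.1 (R 4.3.3; lmFit, eBayes) on log2((PSI + 0.01)/(1 - PSI + 0.01)), with 6 group means in 1 fit and both siRNAs weighted equally. P-values were adjusted by Benjamini-Hochberg over the whole table within a comparison, at 0.05. The fit was tested on simulated data. Sequences were read from the hg38 reference, and reading frames follow the canonical transcript. Python 3.11.15 with pandas 2.3.3, numpy 2.4.6, scipy 1.17.1 and matplotlib 3.10.9 did the rest.

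The members, gene lists and tests were chosen with earlier results of these data known. Named were all called introns and exons, then, to 25 genes, the exon with the smallest unadjusted p per gene for knockdown and for MYCN in turn, 6 exons nearest to 50% inclusion and 2 known alternative exons. KDM1A exon 3, KMT2C and SETD3 were added after their values were seen. The lists of gene groups and partners go by symbol. Of the listed partners, 1 gene is not reported here and is in none of the partner counts. Alternatives were other offsets, PSI itself, other filters, eBayes with trend and robust options, introns with 18 different values, only the groups compared, introns with at least 1 end at an exon boundary, the replicate number as a block, and each library left out.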

Additional observations from a re-analysis of the deposited data

How the results depend on the processing

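The calls are few and rest on 3 libraries a group, and without read numbers a shallow intron cannot be told from a deep one. No called difference changed direction in any alternative that was run.

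For MYCN over all siRNAs, 16 introns became 9 on PSI itself and 8 with means from 0.05 to 0.95. They became 10 without the pair of lowest MYCN+/SNRPD3- libraries (replicate 3 with either siRNA). Of all introns, 1.23% were called in the main fit and 0.908%, 1.20% and 0.720% in these. The 7 exons became 3 with an offset of 0.001, 13 on PSI itself, 11 with the replicate block and 2 without that pair. Of all exons, 3.46% were called in the main fit and 2.58%, 4.26%, 4.88% and 1.29% in these. For MYCN+/SNRPD3- against wildtype, 10 introns became 5 with means from 0.05 to 0.95, 3 with only the groups compared and 4 without the pair. The 10 exons became 1 and 2 under the last 2 of these. Of all introns, 0.559% were called in the main fit and 0.564%, 0.279% and 0.213% in these. Of all exons, 4.31% were called in the main fit and 0.171% and 0.704% in the last 2. For MYCN under control siRNA, only the groups compared gave 2 introns (KMT2D and HDAC9) and 1 exon (KDM5C). Of all introns and exons, 0.380% and 0.291% were called there, against 0.0543% and 0.00745% in the main fit. For SNRPD3 siRNA, exons rose from 0 to 1 on PSI itself (HDAC3 exon 3) and to 1 with the replicate block (KMT2B exon 29). Of all exons, 0.0782% and 0.317% were called then, against 0.0708% in the main fit. Without the pair, 2 introns of KMT2C were called over both states, with MYCN expressed and in the interaction. Of all introns, 0.0399%, 0.0406% and 0.0340% were called there. The siRNA 2 libraries left were not raised at KMT2C, so its calls rest on siRNA 1. The genes named for these alternatives were named after their values were seen, and the cause was not tested.

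The labels do not say whether the replicate numbers pair the libraries, and the values do not settle it. Of 45 same-numbered pairs, 0 had deviations correlated over 0.1, although 14 of 18 libraries correlated best with their own number over introns and 18 of 18 over exons, a hint from the data and not the design. With the block, the introns called were 16 and 13 for MYCN and against wildtype, and exons against wildtype 14. The shares of the whole table were then 1.41% and 0.881% of introns and 6.15% of exons.

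Leaving out 1 library in turn gave 8 to 13 introns and 1 to 7 exons for MYCN, and 1 to 10 introns and 1 to 11 exons against wildtype. For the knockdown it gave 0 to 1 introns and 0 to 1 exons over both states, and 0 to 1 introns and 0 to 2 exons with MYCN expressed. Other comparisons stayed at 0. The shares of all introns and exons in these fits are not given here. Introns for MYCN fell by over 1.5 times without wildtype replicate 2 (10), MYCN-/SNRPD3- siRNA 1 replicates 1 (9) and 2 (9), siRNA 2 replicate 2 (9) and MYCN+/SNRPD3+ replicate 1 (8). Exons for MYCN did so without any wildtype (4, 1 and 4) or MYCN+/SNRPD3+ replicate (1, 4 and 3), MYCN- siRNA 1 replicates 1 and 2 (2 and 1), MYCN- siRNA 2 replicates 1 and 2 (3 and 2), MYCN+ siRNA 1 replicates 2 and 3 (4 and 2) and MYCN+ siRNA 2 replicate 3 (2). Against wildtype, introns did so without any wildtype replicate (1, 2 and 1), MYCN+/SNRPD3+ replicate 2 (6), and replicates 1 and 3 of MYCN+ siRNA 1 (6 and 5) and siRNA 2 (5 and 4). Exons did so without any wildtype replicate (1, 2 and 2) and replicates 1 and 3 of MYCN+ siRNA 1 (6 and 5) and siRNA 2 (6 and 3). The knockdown calls were KDM2B without MYCN- siRNA 2 replicate 3, KMT2B without MYCN- siRNA 2 replicate 2, KDM6A without MYCN+ siRNA 2 replicate 2, and KMT5B without MYCN+ siRNA 1 replicate 2.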
